A study of Mus musculus with 6 samples.

Results

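The genes described here encode smooth muscle alpha-actin (Acta2) and proteins that bind actin filaments or pull on them: the transgelins Tagln and Tagln2, the calponins Cnn1, Cnn2 and Cnn3, the tropomyosins Tpm1 and Tpm2, the myosin light chain Myl9 and the PDZ-LIM protein Pdlim3. Members were found by gene symbol, current or older, in the array's probe annotation. Acta2, Tagln2 and Pdlim3 were picked because their values differed between genotypes in these same arrays, so their differences are given below as a description, without a test. The other 7 were chosen as relatives by function. Of the 10 genes, 9 had a probe, 1 each, and Myl9 had none in the annotation used. All 9 probes were measured on all 6 arrays, among 20434 of the table's 23466 probes that were; 16625 probes carried a symbol, for 16384 named genes.

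The arrays measured RNA of cultured neural stem cells from the brains of C57BL6 mice at P0. The cells were labelled Ecrg4 wt, Ecrg4 hetero or Ecrg4 homo, here called wild type, heterozygous and homozygous, with 2 arrays each. Ecrg4 encodes a small secreted protein. All cells grew untreated in DMEM/F12 that held heparin, EGF and bFGF. The sources used here give neither the kind of Ecrg4 allele nor the origin of the 2 arrays of a genotype, which may be separate animals, cultures or repeats of 1 RNA. The spread behind each p-value is thus that of these arrays alone and may be technical.

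Smooth muscle alpha-actin and the calponin and transgelin families are best known from vascular smooth muscle, where thin filaments slide along myosin and calponin, caldesmon and tropomyosin tune that movement. Many of these genes are induced together by serum response factor (SRF), which binds a short A/T-rich element called the CArG box, together with myocardin or the myocardin-related factors, which sense free actin. Outside muscle, several are found in stress fibres of cultured cells and in cells responding to TGF-beta, and Cnn2, Cnn3, Tagln2 and Tpm1 are widely expressed in cells that are not muscle.

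Arrays of 1 genotype correlated at r = 0.989 to 0.994 over the tested probes, and between 1.49% and 4.05% of probes lay over 2-fold apart within a genotype, most in wild type. Each array's median was 30. As a reference for background, the 95th percentile of 663 olfactory receptor probes was used, which lay between 50.5 and 57.6; a probe under it is called dim. The Ecrg4 probe read 112.9 and 154.9 in wild type, 345.5 and 373.9 in heterozygous and 1.4 and 1.3 in homozygous arrays. The homozygous label was matched by the probe, but heterozygous arrays read above wild type. Of 19 listed neural stem and progenitor markers 14 were measured on all arrays, and 11 of these, among them Nes, Vim, Fabp7 and Pax6, exceeded the background level on all 6. The other 3, Prom1, Nr2e1 and Gfap, were dim on all 6. Sox2 and Sox1 had no probe in the annotation used.

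The CArG box is an element through which many genes of this kind are known to be controlled, so the promoters of the members were searched for it first. The 250 bases before the RefSeq start site (GRCm38.p6) were available for 9 of the 10 members, all but Tagln. An exact CArG box was found in 2 of 9, Cnn2 and Myl9, against 1.47% of all 32851 promoter windows of that length. With up to 1 mismatch in the 6 central bases it was found in 4 of 9, against 8.59%. The search is the same on either strand. The 6 matches are shown with 10 bases on each side, the match in capitals, 5′ to 3′ on the strand of the gene.
Acta2, chr19:34255438-34255467, minus strand, 1 mismatch: gtgctgaggtCCCTATATGGttgtgttaga
Acta2, chr19:34255388-34255417, minus strand, 1 mismatch: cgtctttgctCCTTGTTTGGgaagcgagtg
Cnn2, chr10:79988534-79988563, plus strand, no mismatch: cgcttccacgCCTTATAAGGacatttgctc
Myl9, chr2:156775293-156775322, plus strand, no mismatch: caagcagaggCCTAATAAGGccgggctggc
Myl9, chr2:156775355-156775384, plus strand, 1 mismatch: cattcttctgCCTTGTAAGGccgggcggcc
Pdlim3, chr8:45885377-45885406, plus strand, 1 mismatch: tctctcacttCCAAAGTTGGagctctcctt

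The Acta2 matches lay 84 to 75 and 34 to 25 bases before the start site of the table. RefSeq also places the end of the gene farther upstream, at 34255585, so these matches lie inside its full span. The Cnn2 match lay 56 to 47 bases and the Pdlim3 match 100 to 91 bases before the start. No match with up to 1 mismatch was found in the windows of Tagln2, Cnn1, Cnn3, Tpm1 or Tpm2. The letters GGAATG, the core bound by TEAD factors, searched on either strand, were found in Acta2, Pdlim3, Tagln2 and Tpm1, 4 of 9, against 12.6% of all windows. The windows of the picked genes Tagln2 and Pdlim3, of which the homozygous arrays gave the highest and the lowest levels, are printed in full. GGAATG or its reverse complement is in capitals, and so is the CArG match of Pdlim3.
Tagln2, chr1:172499996-172500245, plus strand: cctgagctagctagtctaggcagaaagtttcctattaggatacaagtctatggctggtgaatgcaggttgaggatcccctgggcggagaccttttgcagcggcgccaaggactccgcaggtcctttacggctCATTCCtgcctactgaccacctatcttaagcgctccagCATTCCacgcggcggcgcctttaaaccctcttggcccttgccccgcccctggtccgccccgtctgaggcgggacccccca
Pdlim3, chr8:45885237-45885486, plus strand: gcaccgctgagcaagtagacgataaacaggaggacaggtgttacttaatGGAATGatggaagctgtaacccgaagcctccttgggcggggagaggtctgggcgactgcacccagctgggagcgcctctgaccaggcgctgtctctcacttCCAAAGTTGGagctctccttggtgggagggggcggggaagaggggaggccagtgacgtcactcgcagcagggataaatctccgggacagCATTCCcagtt

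These matches describe the letters of the windows. Binding was not measured, and the absence of a match says only that the letters are not in that window.

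The actin of the group was highest in wild type, lower in heterozygous and lowest in homozygous arrays. Acta2 read 1229.5 and 894.8 in wild type, 277.5 and 284.6 in heterozygous and 88.0 and 118.5 in homozygous arrays. All 6 values exceeded the background level, no genotype overlapped another, and every heterozygous value lay between the wild-type and the homozygous values. On the log2 scale the difference was -1.90 ± 0.22 (SE of the limma fit, n = 2 arrays each) between heterozygous and wild type and -1.46 ± 0.22 between homozygous and heterozygous. Between homozygous and wild type it was -3.36 ± 0.22, with a 95% interval of -3.90 to -2.82, or a geometric mean 10.3-fold lower. The replicates of a genotype lay 0.46 (wild type), 0.04 (heterozygous) and 0.43 (homozygous) apart on the log2 scale, less than either step. Over 14 other settings, each array left out included, the difference between homozygous and wild type ranged from -3.59 to -3.13. In bulk RNA like this, fewer cells with the transcript and less transcript per cell cannot be told apart.

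**Figure D1:**
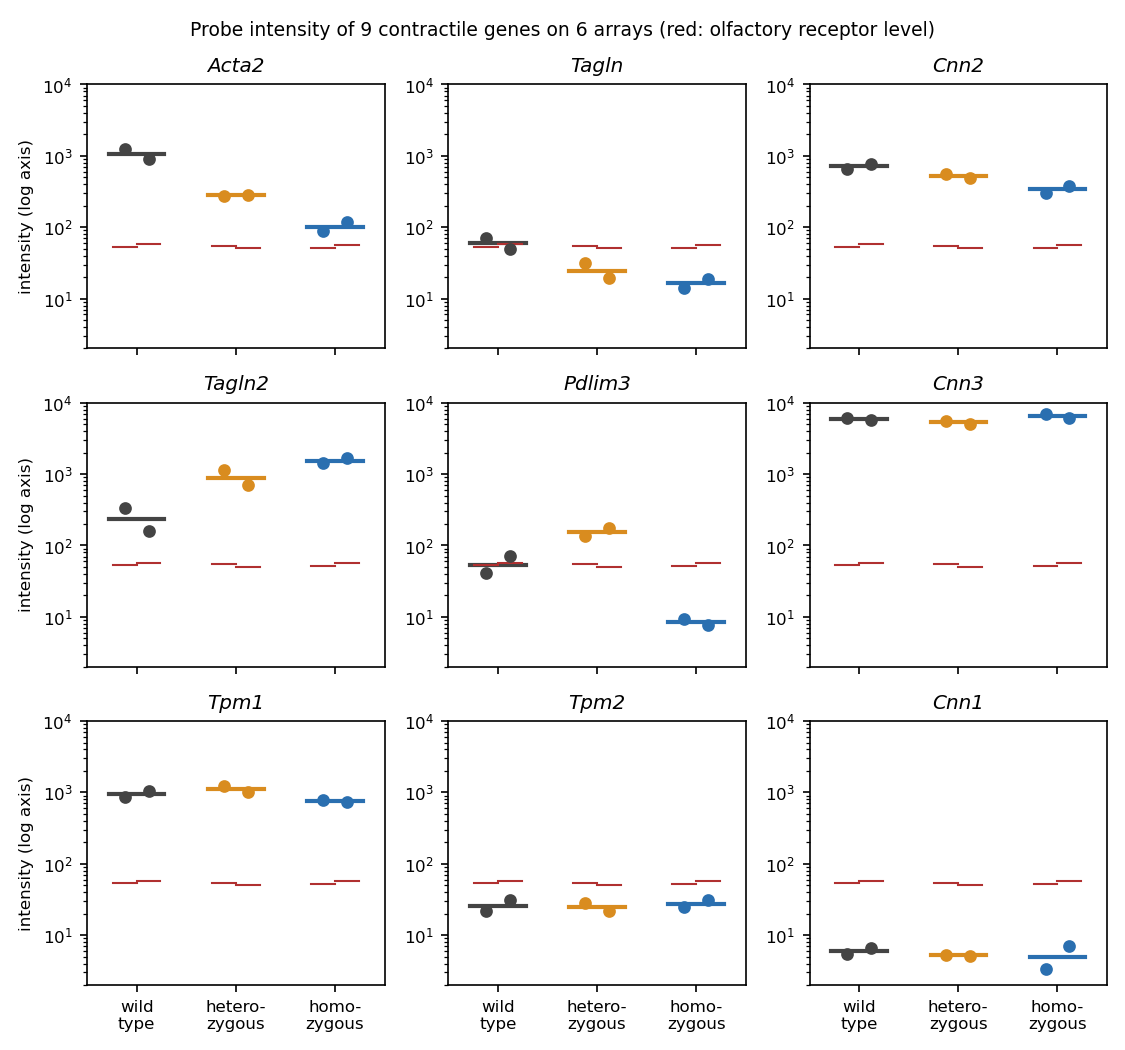
Probe intensity on a log axis for the 9 measured contractile genes, with 1 point per array, a bar at each genotype's geometric mean and a red line at that array's 95th percentile of olfactory receptor probes. Acta2 steps down from 1229.5 and 894.8 in wild type to 88.0 and 118.5 in homozygous arrays, Tagln2 runs the other way, Pdlim3 is highest in heterozygous arrays, and Cnn1 and Tpm2 stay under the red line throughout.

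Of the transgelins, calponin-like proteins that cross-link actin filaments, Tagln read highest and Tagln2 lowest in wild type. Tagln, the smooth muscle form also known as SM22, read 71.3 and 50.1 in wild type, 31.4 and 19.3 in heterozygous and 14.1 and 18.9 in homozygous arrays. Its values ran in the order of Acta2, and no genotype overlapped another, although heterozygous array 2, at 19.3, was just above homozygous array 2. The heterozygous and homozygous values were all dim, so the order of these genotypes cannot be read. The log2 difference of Tagln between homozygous and wild type was -1.87 ± 0.31, which did not pass the threshold of 0.05 (limma adjusted p = 0.0578). Between heterozygous and wild type it was -1.28 ± 0.31 (adjusted p = 0.183) and between homozygous and heterozygous -0.59 ± 0.31 (adjusted p = 0.370). Wild-type array 1 was the only array on which Tagln exceeded the background level. With wild-type array 2 under it as well, no bound on the fold of Tagln was taken. The adjusted p between homozygous and wild type fell under the threshold with quantile normalization (0.0416), with median centring (0.0392), with a pseudocount of 16 (0.0175) and with an intensity trend and robust prior (0.00516). It stayed above it with blank cells at the lowest value (0.096), with only the arrays compared (0.072) and with a replicate block (0.116). It also stayed above the threshold when any array was left out, where the log2 difference ranged from -2.13 to -1.62.

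Tagln2, the transgelin found in many cells outside smooth muscle, read 337.9 and 161.4 in wild type, 1126.9 and 707.6 in heterozygous and 1412.6 and 1679.3 in homozygous arrays. All values were above the background level and the genotypes did not overlap, with the order opposite to that of Acta2. The wild-type arrays lay 1.07 apart on the log2 scale, the widest gap between replicates in the group. Tagln2 was higher by 1.93 ± 0.39 on the log2 scale in heterozygous and by 2.72 ± 0.39 (6.60-fold) in homozygous than in wild-type arrays. The step from heterozygous to homozygous was 0.79 ± 0.39, beside gaps between replicates of 0.67 and 0.25 in these genotypes. Without wild-type array 2 the difference between homozygous and wild type was 2.19, and without wild-type array 1 it was 3.25.

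Among the calponins, which bind actin and slow the myosin motor, Cnn2 ran lower in the order of Acta2. Cnn2, the form found in many cells that are not muscle, read 659.6 and 773.7 in wild type, 548.4 and 496.9 in heterozygous and 305.1 and 376.0 in homozygous arrays. These groups did not overlap either, and all values were above the background level. The log2 difference between homozygous and wild type was -1.08 ± 0.18, or 2.11-fold lower, and missed the threshold (limma adjusted p = 0.0585). It passed with quantile normalization (0.0382), median centring (0.0287), a pseudocount of 16 (0.0110), bright probes alone (0.0126) and an intensity trend and robust prior (0.00386). It missed with blank cells at the lowest value (0.0962), with only the arrays compared (0.117) and with a replicate block (0.124). It also missed when any array was left out, where the log2 difference ranged from -1.23 to -0.93. The steps were -0.45 ± 0.18 between heterozygous and wild type (adjusted p = 0.355) and -0.62 ± 0.18 between homozygous and heterozygous (adjusted p = 0.143). The second of these passed with a pseudocount (0.0430), with bright probes alone (0.0494) and with the intensity trend (0.0361), and in no other setting.

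Cnn3, the acidic calponin expressed in brain, was bright and nearly level. It read 6043.8 and 5700.3 in wild type, 5587.3 and 5105.3 in heterozygous and 6958.8 and 6128.9 in homozygous arrays. Its log2 difference between homozygous and wild type was 0.15 ± 0.15 (adjusted p = 0.617), and the 95% interval of -0.22 to 0.52 leaves out a difference as low as the -1.08 of Cnn2. Cnn1, the calponin of differentiated smooth muscle, was dim on all 6 arrays, at 3.4 to 7.1, and no difference could be read from it.

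The tropomyosins lie along the actin filament and govern which myosins reach it. Tpm1 read 849.8 and 1048.0 in wild type, 1242.7 and 1021.0 in heterozygous and 790.7 and 725.6 in homozygous arrays. Wild-type and heterozygous values overlapped, and the homozygous arrays were the lowest 2 of the 6. The log2 difference of Tpm1 was -0.57 ± 0.18 between homozygous and heterozygous (adjusted p = 0.179) and -0.32 ± 0.18 between homozygous and wild type (adjusted p = 0.392), with a 95% interval of -0.76 to 0.13 for the latter. Tpm2, the form abundant in smooth and slow muscle, stayed dim, at 21.6 to 31.0 over all arrays, with overlapping genotypes. Splicing gives Tpm1 several muscle and non-muscle forms, and the sources used here do not say which of them the probe reads.

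Pdlim3, a PDZ and LIM domain protein that sits with alpha-actinin at the Z-disc of muscle and along stress fibres, had another order. It read 40.9 and 71.4 in wild type, 133.7 and 174.3 in heterozygous and 9.4 and 7.8 in homozygous arrays. The heterozygous arrays were the highest and the homozygous arrays the lowest, with no overlap, which is also the order of the Ecrg4 probe. The log2 difference was 1.50 ± 0.30 between heterozygous and wild type, -2.66 ± 0.30 between homozygous and wild type and -4.16 ± 0.30 between homozygous and heterozygous. The homozygous arrays were dim, so the last difference is measured only as at least 2.84-fold lower. For homozygous against wild type no bound above 1 was obtained, since wild-type array 1, at 40.9, was itself dim. With a pseudocount of 16 the values were -1.52 (homozygous minus wild type) and -2.78 (homozygous minus heterozygous).

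**Figure D2:**
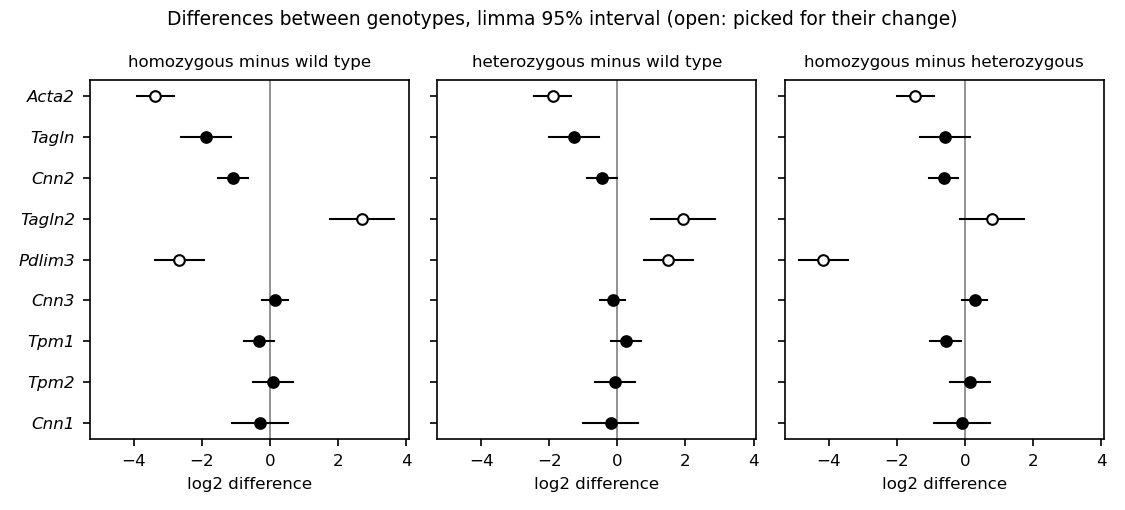
Log2 difference of each contractile gene in the 3 comparisons, as points with the 95% interval of the limma fit (n = 2 arrays per genotype); open points mark genes picked for their change. Between homozygous and wild type Acta2 is at -3.36, Tagln at -1.87, Cnn2 at -1.08 and Tagln2 at 2.72, while Cnn3 and Tpm1 lie near 0. Tpm2 and Cnn1 also lie near 0, but both are dim on all arrays, so no difference can be read from them.

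The 6 measured members that were not picked were counted apart from the 3 that were. None of the 6 passed in any of the 3 comparisons at a limma adjusted p under 0.05. At an unadjusted p under 0.05 there were 2 of 6 between homozygous and wild type (Tagln and Cnn2), against 19.0% of all tested probes. There were 2 of 6 between heterozygous and wild type (again Tagln and Cnn2), against 13.5%, and 2 of 6 between homozygous and heterozygous (Cnn2 and Tpm1), against 18.2%. Between homozygous and wild type 3 of the 6 were lower without overlap (Tagln, Cnn2 and Tpm1), against 24.8% of all probes, and 1 was higher (Cnn3), against 25.7%. The same genes made up these counts between homozygous and heterozygous, against 25.9% lower and 28.7% higher. In that comparison Tagln was dim in both genotypes, so its values carry no readable difference there. Between heterozygous and wild type Tagln, Cnn2, Cnn3 and the dim Cnn1, whose values carry no readable difference, were lower without overlap, against 24.5%, and none was higher, against 21.0%. The median log2 difference of the 6 was -0.30 between homozygous and wild type, -0.17 between heterozygous and wild type and -0.33 between homozygous and heterozygous, against 0.02, -0.01 and 0.04 over all probes. The comparisons share arrays, so they do not support each other.

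Since Acta2, Tagln2 and Pdlim3 were picked on these arrays, their calls describe the choice, and nothing is read from them. Between homozygous and wild type all 3 lay past the threshold, 2 lower and 1 higher, where 0.920% of all probes did, 0.489% lower and 0.431% higher. Between heterozygous and wild type Acta2 did, where 0.749% of all probes did, 0.338% lower and 0.411% higher. Between homozygous and heterozygous Acta2 and Pdlim3 did, where 2.69% did, 1.43% lower and 1.26% higher. The count of 3 was 0 without either homozygous array (5 and 6 members at an unadjusted p under 0.05), 1 without either heterozygous array and 2 without either wild-type array. The count of 1 was 2 without wild-type array 2 and 0 when any other array was left out (4 or 5 at an unadjusted p). The count of 2 was 1 without a heterozygous array and 0 without a homozygous one (2 and 4 at an unadjusted p).

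For each picked gene, the named genes of nearest pattern were found by the root mean square difference between log2 profiles over the 6 arrays, each centred on its own mean, among 7430 genes with a probe above the background level on at least 1 array. Nearest to Acta2 was Tgfb1i1 (0.59), which encodes Hic-5, a focal adhesion protein known as a TGF-beta induced partner of contractile gene regulators. It read 200.7 and 217.1 in wild type, 148.3 and 123.7 in heterozygous and 40.2 and 40.2 in homozygous arrays. Then came Glb1l (0.62), Tagln (0.65), Ccdc106 (0.67) and Neil3 (0.72). Glb1l and Tagln exceeded the background level on 1 array, Neil3 on 2 and Tgfb1i1 and Ccdc106 on 4, so these distances and ranks rest in part on dim values. A gene could enter the search through the genotype in which it was high. The nearest genes of all 3 picked genes were chosen for likeness on these same arrays, so their shared order describes the choice. Cnn2 ranked 45 and Tpm1 ranked 1799 of 7430, and Tagln2, at 2.53, was among the farthest, at rank 7422.

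Nearest to Tagln2 were Apoa2 (0.38), Gbp7 (0.39), Cd36 (0.45), Igfbp4 (0.54) and another actin, Actg2 (0.57), which encodes the gamma-actin of visceral smooth muscle. Of these, Igfbp4 was above the background level on all 6 arrays, Actg2 on 3 and Apoa2, Gbp7 and Cd36 on 2. Actg2 read 20.6 and 25.1 in wild type, 61.2 and 38.8 in heterozygous and 68.8 and 96.5 in homozygous arrays, so it ran opposite to Acta2. Its log2 difference between homozygous and wild type, 1.84 ± 0.28, missed the threshold (limma adjusted p = 0.0518) and was at least 1.47-fold with the wild-type arrays at the background level. It passed with quantile normalization (0.0304), median centring (0.0275), a pseudocount of 16 (0.0157) and an intensity trend and robust prior (0.00335). It missed with blank cells at the lowest value (0.0892), with only the arrays compared (0.0644) and with a replicate block (0.122). It also missed when any array was left out, where the log2 difference ranged from 1.60 to 2.09. Nearest to Pdlim3 were Chl1 (0.46), Gng2 (0.46), Scrg1 (0.48), S100a10 (0.56) and Hoxa5 (0.67). Hoxa5 exceeded the background level on 1 array, Chl1 on 2, Gng2 on 4, Scrg1 on 5 and S100a10 on all 6. The annexin partner S100a10 read 2873.8 and 3530.9 in wild type, 5834.9 and 4940.7 in heterozygous and 626.7 and 752.9 in homozygous arrays.

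**Figure D3:**
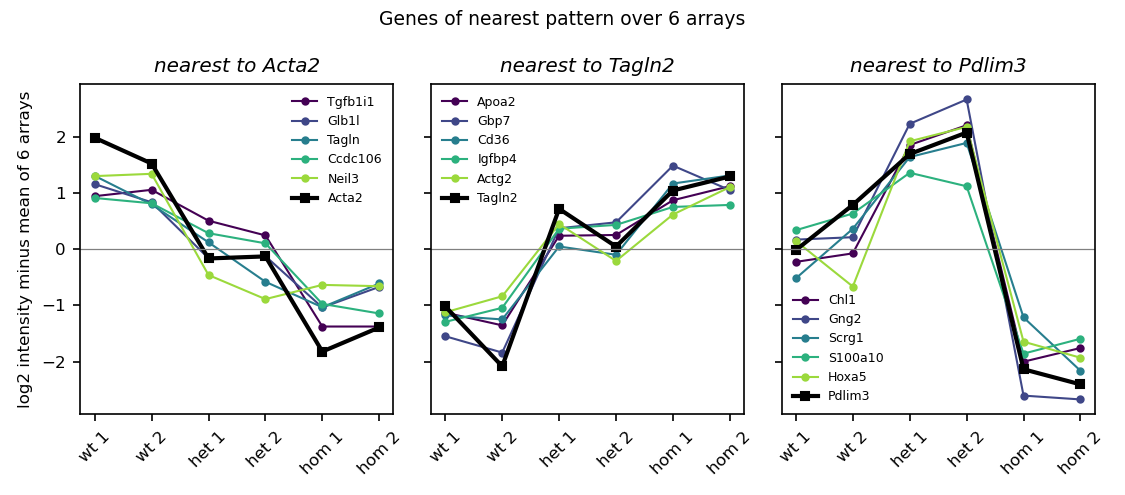
Log2 intensity minus the mean of the 6 arrays for Acta2, Tagln2 and Pdlim3 (black squares) and the 5 genes nearest to each (coloured points); wt, het and hom stand for wild type, heterozygous and homozygous, and the lines only join points of a gene. Tgfb1i1 and Tagln are highest in the wild-type arrays with Acta2, Actg2 is lowest there with Tagln2, and Chl1 and Gng2 are highest with Pdlim3 in the heterozygous arrays. The genes were chosen for their likeness on these same arrays, so the shared order describes the choice.

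The wider contractile system was described by lists of genes beside these members. In the SRF list, of 24 measured genes Tgfb1i1 fell between homozygous and wild type (-2.38 ± 0.16, limma adjusted p = 0.00583, at least 3.88-fold) and between homozygous and heterozygous (-1.75 ± 0.16, adjusted p = 0.00806, at least 2.52-fold), and no other gene passed. Of all probes, 0.920% and 2.69% passed in these comparisons. At an unadjusted p under 0.05, 3 of the 24 were higher and 1 lower between homozygous and wild type, against 19.0% of all probes. Without homozygous array 1 or 2 the Tgfb1i1 call against wild type ended (adjusted p = 0.0848 and 0.104), and so did the call against heterozygous (0.0861 and 0.0976), which also ended without heterozygous array 1 (0.0562). Srf itself, at 108.7 and 116.0 in wild type and 114.7 and 161.1 in homozygous arrays, gave 0.28 (adjusted p = 0.543). Myocd, the muscle-restricted SRF partner, was dim, at 7.1 to 10.3. Of the myocardin-related factors, Mrtfa was dim too, at 19.4 to 31.8, and Mrtfb was not measured on all arrays. The median of the SRF list between homozygous and wild type was 0.07.

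Of the other actins, Actb read 50832.1 and 42585.2 in wild type and 35522.5 and 39333.9 in homozygous arrays (-0.32, adjusted p = 0.345), and Acta1 was dim. Of 9 measured relatives of the transgelins, tropomyosins and PDZ-LIM proteins, Pdlim4 fell between homozygous and heterozygous (-1.51 ± 0.27, adjusted p = 0.0486), a call that ended when any array was left out (adjusted p 0.0604 to 0.290). It read 846.4 and 930.6 in wild type, 2514.0 and 1496.4 in heterozygous and 764.5 and 606.2 in homozygous arrays. Between homozygous and heterozygous 2.69% of all probes passed. At an unadjusted p under 0.05, 1 of the 9 relatives was higher and 2 were lower there, against 18.2% of all probes. Of 28 actin filament and focal adhesion genes, Gsn, encoding the filament-severing protein gelsolin, fell between homozygous and wild type (-1.09 ± 0.14, adjusted p = 0.0364) and between homozygous and heterozygous (-0.99 ± 0.14, adjusted p = 0.0285). The Gsn call against wild type ended when any array was left out (0.0584 to 0.269), and the call against heterozygous ended without either of the arrays of the genotypes compared (0.126 to 0.203). With the homozygous arrays at the background level, the fold of Gsn was at least 1.78 against wild type and at least 1.66 against heterozygous. Of all probes, 0.920% and 2.69% passed in these comparisons. At an unadjusted p under 0.05, 5 of the 28 were higher and 5 lower between homozygous and wild type, against 19.0% of all probes. Between homozygous and heterozygous 4 were higher and 4 lower, against 18.2%.

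No gene of the myosin list (13 measured) or the mature smooth muscle list (13 measured) passed in any comparison with limma; between homozygous and wild type 4 of the former and 2 of the latter had an unadjusted p under 0.05, against 19.0% of all probes. Of the mature smooth muscle genes 7 were dim on all 6 arrays, among them Myh11, at 3.7 to 6.8, Des, at 1.5 to 4.5, and Lmod1, at 2.7 to 6.7. Smtn, Csrp1 and Cald1 exceeded the background level on all 6, and Actg2, described above, is also in this list. Caldesmon, Cald1, read 67.2 and 86.4 in wild type, 162.3 and 164.7 in heterozygous and 96.6 and 75.4 in homozygous arrays. It did not pass (limma adjusted p = 0.0970 between heterozygous and wild type and 0.073 between homozygous and heterozygous). The medians of these lists between homozygous and wild type were 0.13 and 0.02.

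**Figure D4:**
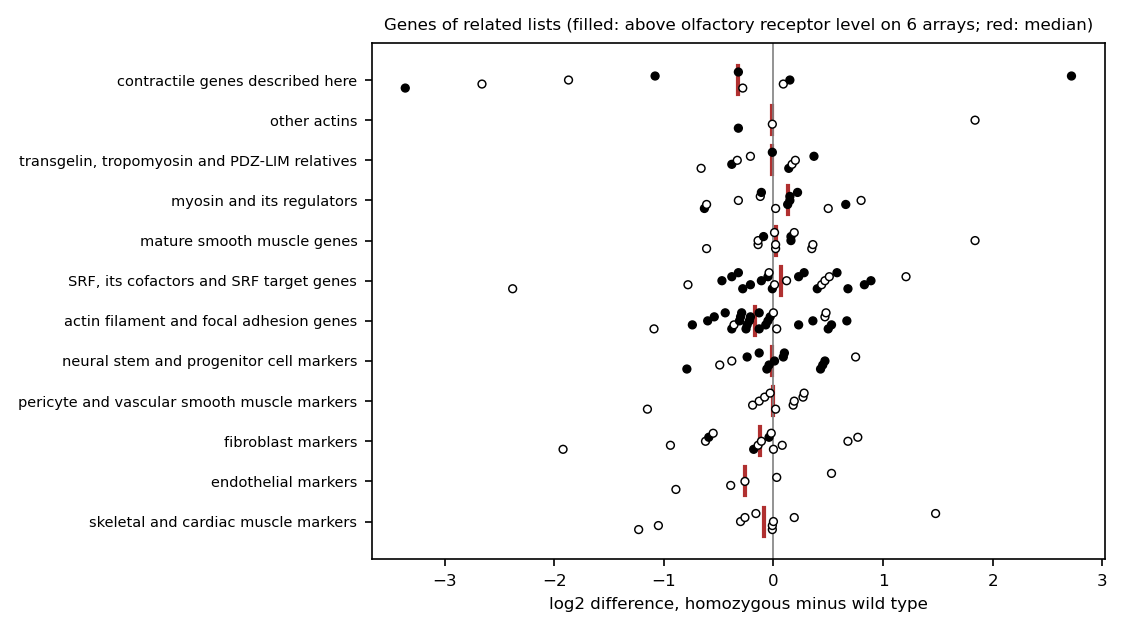
Log2 difference between homozygous and wild type for each measured gene of the contractile group and of 11 related lists, 1 point per gene, filled where the probe exceeded the olfactory receptor level on all 6 arrays, with a red bar at each median. The median of the contractile group, -0.32, includes the 3 picked genes, and the lists' medians lie between -0.26 and 0.13; single list genes reach -2.38 (Tgfb1i1) and 1.84 (Actg2).

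Markers of other cells in which Acta2 and Tagln are abundant were read beside these values. Of 10 measured pericyte and vascular smooth muscle markers, 9 were dim on all 6 arrays, including Pdgfrb, at 42.8 to 49.7, Notch3, Cspg4 and Rgs5. Anpep exceeded the background level on 5 of 6 arrays. The summed intensity of the list was 182 and 275 in wild type, 237 and 225 in heterozygous and 228 and 236 in homozygous arrays. It is mostly background and Anpep, and the part of such cells in the Acta2 values was not tested. Rgs5 read 15.1 and 12.7 in wild type, 7.0 and 6.5 in heterozygous and 4.2 and 9.3 in homozygous arrays, all under the background level. None of the 10 passed in any comparison with limma, and 1 had an unadjusted p under 0.05 between homozygous and wild type, against 19.0% of all probes.

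Of 14 fibroblast markers 9 were dim on all arrays, with Col1a1 at 6.8 to 15.8 and Col3a1 at 13.1 to 16.9, and the sum was 502 and 706 in wild type, 742 and 882 in heterozygous and 536 and 499 in homozygous arrays. Fn1, Twist1, Col5a1 and Thy1 carried most of these sums. None of the 14 passed with limma, while 1 had an unadjusted p under 0.05 between homozygous and wild type, where 19.0% of all probes did, and 5 between homozygous and heterozygous, where 18.2% did. Thy1 came nearest, at 115.9 and 155.0 in heterozygous and 43.5 and 21.4 in homozygous arrays (adjusted p = 0.0548), and the part of fibroblasts in the contractile gene values was not tested. Of 5 endothelial markers 4 were dim on all arrays, and their sum was 156 and 216 in wild type, 94 and 77 in heterozygous and 140 and 97 in homozygous arrays. Flt1, above background on 5 of 6 arrays, made up most of that sum, and the part of endothelial cells in the Acta2 values was not tested. All 10 skeletal and cardiac muscle markers were dim. Tnnt3 was lower in homozygous than in heterozygous arrays (-1.99 ± 0.30, limma adjusted p = 0.0319), where 2.69% of all probes passed. Both genotypes were under the background level. That call ended in 6 other settings, among them without any 1 array of these genotypes.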

How the data were processed

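The deposited values were 1-colour intensities, not log-transformed, and as each array's median was 30 the authors had scaled them; how background and blank cells were handled is not stated in the labels. Between 21740 and 22561 probes had a value on an array. The number of arrays limits the precision. Values were log2-transformed without a pseudocount, and the 20434 probes measured on all 6 arrays were fitted in limma 3.58.1 (R 4.3.3) by lmFit and eBayes, with 1 coefficient per genotype and no block, 3 residual and 3.27 prior degrees of freedom. P-values were two-sided and Benjamini-Hochberg adjusted over all tested probes, with a threshold of 0.05. The fit was tested on simulated data. A dim genotype was set at the arrays' olfactory receptor level for a bound of the fold.

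Of 16625 probes with a symbol, 3943 older symbols were updated through a RefSeq table (GRCm38.p6). The text names all members, up to 4 passing genes per list, the 5 genes nearest to each picked gene, and others chosen after their values were seen as examples. Members, lists and the background reference were chosen with earlier results of these data known. Other scalings, a pseudocount, filled blanks, a filter on dim probes, another variance prior, fewer arrays and a replicate block were tried. Scanner files were not used here.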

Additional observations from a re-analysis of the deposited data

How the results depend on the processing

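With 2 arrays per genotype, counts of calls moved with the settings more than the differences did. The 3 contractile genes called between homozygous and wild type were 5 with quantile normalization, median centring, a pseudocount of 16 or an intensity trend and robust prior (Tagln and Cnn2 joining), 1 with only the arrays compared or with the replicate block, 2 with blank cells at the lowest value, and 0 to 2 with 1 array left out. The 1 called between heterozygous and wild type was 2 with the pseudocount or bright probes only, 3 with the trend, 0 with only the arrays compared or the replicate block (limma; 4 at an unadjusted p under 0.05 in each), and 0 to 2 with 1 array left out. The 2 called between homozygous and heterozygous were 3 with the pseudocount or the trend (Cnn2 joining), 1 with blank cells at the lowest value or with the replicate block, and 0 to 2 with 1 array left out.

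Over all probes, the 188 calls between homozygous and wild type were 328 (quantile), 314 (centring), 1143 (pseudocount), 88 (blanks filled), 720 (bright probes), 1094 (trend), 59 (only the arrays compared), 47 (replicate block) and 1 to 224 with 1 array left out. The 153 between heterozygous and wild type were 306 (pseudocount), 400 (trend), 40 (only the arrays compared), 51 (replicate block) and 18 to 340. The 549 between homozygous and heterozygous were 1376 (pseudocount), 320 (blanks filled), 1357 (trend), 244 (replicate block) and 6 to 680. The cause of these moves was not tested.

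The deviations of same-numbered arrays correlated at 0.02, 0.01 and -0.08, so the numbers were not read as pairs. Among single genes 8 of 570 values changed sign, all for dim probes with 1 array left out. For Tpm2 these were -0.15 and -0.08 between homozygous and wild type (leave-one-out range -0.15 to 0.32), 0.16 and 0.13 between heterozygous and wild type (-0.31 to 0.16) and -0.04 and -0.01 between homozygous and heterozygous (-0.04 to 0.35). For Cnn1 they were 0.25 against wild type (-0.81 to 0.25) and 0.45 against heterozygous (-0.61 to 0.45), both without homozygous array 1. With 1 array left out, the lone array of its genotype is assumed to vary like the others.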

Other observations

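Some immediate-early SRF targets lay far apart between arrays of 1 genotype; Fos, Ccn1 and Ier2 were singled out after their values were seen. Fos, a transcription factor gene induced within minutes of stimulation, read 271.9 and 903.4 in wild type, 281.4 and 1242.6 in heterozygous and 240.6 and 3209.8 in homozygous arrays. In each genotype the array numbered 2 was the higher. The matricellular gene Ccn1 read 34.1 and 132.9, 41.1 and 107.3, and 55.9 and 433.6 in the same order, and Ier2 read 387.2 and 786.6, 441.0 and 736.6, and 464.6 and 1672.7. None of these passed between homozygous and wild type (limma adjusted p of 0.765 for Fos, 0.578 for Ccn1 and 0.604 for Ier2). Egr1, Egr2 and Junb were also higher on array 2 in each genotype, but in heterozygous arrays by 0.14, 0.07 and 0.09 on the log2 scale. Fosb was lower on array 2 in wild type and heterozygous. Acta2 was lower on array 2 in wild type and higher in heterozygous and homozygous.

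The values of Fhl1, a LIM protein gene of muscle and an SRF target, were lowest in wild type, where Acta2 was highest, without passing: 1326.0 and 1561.0 in wild type, 2455.0 and 2545.3 in heterozygous and 2799.2 and 2533.5 in homozygous arrays (limma adjusted p = 0.0710 between homozygous and wild type). Heterozygous and homozygous values overlapped.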
